A study of Mus musculus with 6 samples.

Results

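The 10 genes described here carry glucose into the cell and turn it into lactate: the glucose transporter *Slc2a1* (GLUT1), the hexokinases *Hk1* and *Hk2*, the phosphofructokinases *Pfkl* and *Pfkp*, and *Aldoa*, *Pgk1*, *Eno1*, *Pkm* and *Ldha*. They were chosen by name, as the rows of the deposited table that carry these symbols, and make up 10 of its 49548 genes. The cells were primary synovial fibroblasts (SFs) grown from the ankle joints of 8-week-old hTNFtg mice, which carry a human TNF transgene and develop chronic polyarthritis. The mice had a CBA C57BL/6J background, and CD45+ cells were depleted from the cultures at passage 1. All 6 cultures carried the transgene, so no wild-type level is given here, and the promoter that drives the transgene is not named in the sources used here. In 3 cultures the labels give no treatment, while the methods of the study call the control vehicle. The other 3 received amisulpride, an antipsychotic that blocks dopamine receptors, at 500 µM for 48 h. RNA was read by QuantSeq 3′ mRNA sequencing, which samples the 3′ end of each polyadenylated transcript, and the comparison asks which transcripts differ between treated and untreated arthritic SFs.

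Glycolysis splits glucose into pyruvate in the cytosol and yields ATP without oxygen. Hexokinase traps glucose in the cell, phosphofructokinase is the main control point, and pyruvate kinase and lactate dehydrogenase close the route to lactate, which leaves the cell through monocarboxylate transporters. SFs of inflamed joints are known for high glucose use and lactate output, and HIF-1, MYC and USF proteins are known regulators of many of these genes.

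None of the 10 genes was called between the groups. At an adjusted p under 0.05 (limma, Benjamini-Hochberg over the 12614 genes tested) 0 of 10 passed, where 0.285% of all genes tested did. With the replicate number as a block 0 of 10 passed as well, where 263 of the 12614 genes did. The study used a log2 change of 1 or more in either direction together with an unadjusted p under 0.05, and there too 0 of 10 passed, beside 5.7% of all genes tested. At an unadjusted p under 0.05 alone the count was again 0 of 10, beside 10.9% of all genes tested. The values of the 3 treated cultures all lay below those of the 3 untreated cultures for 2 of 10, *Pfkl* and *Pkm*, a pattern seen for 8.66% of all genes tested. Log2 fold changes ran from -0.50 for *Pfkl* to 0.25 for *Hk2*, with 8 below 0 and 2 above. Their median was -0.13, where the median of all genes tested was 0.0016. A median of this size over 10 genes was given no test.

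All 10 genes had a promoter entry in the RefSeq table (GRCm38.p6, the same build as mm10), with 17 annotated starts in all. Each entry is the 300 bases from 250 before the start to 50 after it. Promoters of 4 genes are printed, chosen by their values: *Pfkl* and *Pkm* are the genes without overlap between the groups, and *Ldha* and *Slc2a1* varied most between libraries. No expression result rests on these sequences. Capitals mark ACGTG or GCGTG, the short words that HIF-type proteins bind, on either strand (CACGT and CACGC on the printed strand). The E-box CACGTG, which MYC and USF proteins bind, contains ACGTG on both strands. The sequences lie at chr7:46845554-46845853 (plus strand, *Ldha*), chr4:119108495-119108794 (plus strand, *Slc2a1*), chr10:78009758-78010057 (minus strand, *Pfkl*) and chr9:59656977-59657276 (plus strand, the second annotated start of *Pkm*), each written 5′ to 3′ on the strand of the gene.
Ldha: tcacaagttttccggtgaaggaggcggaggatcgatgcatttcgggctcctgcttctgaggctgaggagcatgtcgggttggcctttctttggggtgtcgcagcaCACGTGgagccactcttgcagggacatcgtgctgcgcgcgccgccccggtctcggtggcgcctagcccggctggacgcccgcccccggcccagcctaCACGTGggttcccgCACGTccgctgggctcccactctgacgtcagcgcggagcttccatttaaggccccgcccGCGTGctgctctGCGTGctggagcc
Slc2a1: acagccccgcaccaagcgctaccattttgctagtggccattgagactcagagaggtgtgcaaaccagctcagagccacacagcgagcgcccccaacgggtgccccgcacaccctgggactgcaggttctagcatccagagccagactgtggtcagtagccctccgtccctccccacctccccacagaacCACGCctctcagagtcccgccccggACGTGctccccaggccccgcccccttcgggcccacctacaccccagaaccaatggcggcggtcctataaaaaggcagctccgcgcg
Pfkl: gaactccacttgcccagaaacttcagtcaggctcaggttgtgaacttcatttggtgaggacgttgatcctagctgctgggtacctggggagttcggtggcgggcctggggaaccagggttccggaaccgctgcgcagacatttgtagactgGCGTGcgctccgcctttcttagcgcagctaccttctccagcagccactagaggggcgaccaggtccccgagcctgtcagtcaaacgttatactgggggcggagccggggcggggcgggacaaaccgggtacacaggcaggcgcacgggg
Pkm: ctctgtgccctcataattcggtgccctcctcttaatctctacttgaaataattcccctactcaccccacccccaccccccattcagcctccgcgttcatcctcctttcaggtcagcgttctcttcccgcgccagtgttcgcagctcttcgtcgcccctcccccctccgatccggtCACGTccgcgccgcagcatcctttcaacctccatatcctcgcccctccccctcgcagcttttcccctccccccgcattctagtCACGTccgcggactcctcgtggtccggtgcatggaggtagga
The *Ldha* window held 7 matches, among them 2 copies of CACGTG, each of which counts on both strands. The *Slc2a1* and *Pkm* windows held 2 matches each and the *Pfkl* window held 1. A window with either word was listed for 10 of 10 genes and for 14 of their 17 starts, beside 43.77% of all 32851 promoters in the table and 46.73% of its 27025 genes. The first listed start of *Pkm* held none, and the second listed start of *Ldha* held 2 matches and no CACGTG. For both genes the printed start is the one with more matches. Some windows of *Eno1*, and of *Aldoa*, overlap and share sequence. A match is a description of letters, and the data hold no measurement of binding.

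Library totals ran from 3832980 to 4504242 normalised counts, and 16851 to 18364 genes had a value above 0 per library. The spacing of the low values showed what a single read was worth in 4 libraries: 0.896, 1.328 and 1.788 normalised counts in amisulpride replicates 1, 2 and 3 and 0.836 in untreated replicate 3, so amisulpride replicate 3 was the shallowest of these. In untreated replicates 1 and 2 the spacing was too close to 1 to read with certainty. The summed level of 12 fibroblast markers was 46558 to 62931 in untreated and 53985 to 94425 in treated cultures. The summed level of 12 myeloid markers was 2444 to 4249 and 2393 to 4297, so myeloid transcripts were measured in cultures depleted of CD45+ cells. Of 9 lymphocyte markers 7 were at 0 in all libraries, and endothelial and skeletal muscle markers summed to at most 17 and 65. In bulk RNA, fewer cells of a type and less RNA per cell cannot be told apart.

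*Slc2a1* (chr4:119108711-119137983, plus strand) encodes GLUT1, the main glucose transporter of fibroblasts. Its normalised counts were 329, 211 and 253 in untreated replicates 1, 2 and 3 and 119, 213 and 412 in the amisulpride replicates of the same numbers. The treated group held both the lowest and the highest of the 6 values. The means were 264 ± 59.8 and 248 ± 150 (SD, n = 3 each), and the log2 fold change was -0.25 ± 0.40 (SE; 95% interval -1.12 to 0.62; adjusted p = 0.852). Same-numbered cultures differed by -1.46, 0.01 and 0.70 on the log2 scale, so the direction was not shared between pairs. Without amisulpride replicate 3 the log2 fold change was -0.70 (limma, adjusted p = 0.356). *Slc2a3*, the high-affinity transporter GLUT3, was too low to test, with 7, 3 and 13 against 8, 9 and 9 normalised counts. Of the 12 glucose transporter genes listed 7 were tested and 0 passed either threshold, beside 0.285% and 5.7% of all genes tested. These shares are the background of each later list too, and 0 of so few genes is not read as absence of change. Log2 fold changes of the 7 transporters ran from -1.41 to 1.09, with 3 above 0 and 4 below. The lowest p among them belonged to *Slc2a10* (GLUT10), with 285, 240 and 233 untreated and 150, 110 and 243 treated normalised counts, a log2 fold change of -0.66 and an adjusted p of 0.465.

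**Figure D1:**
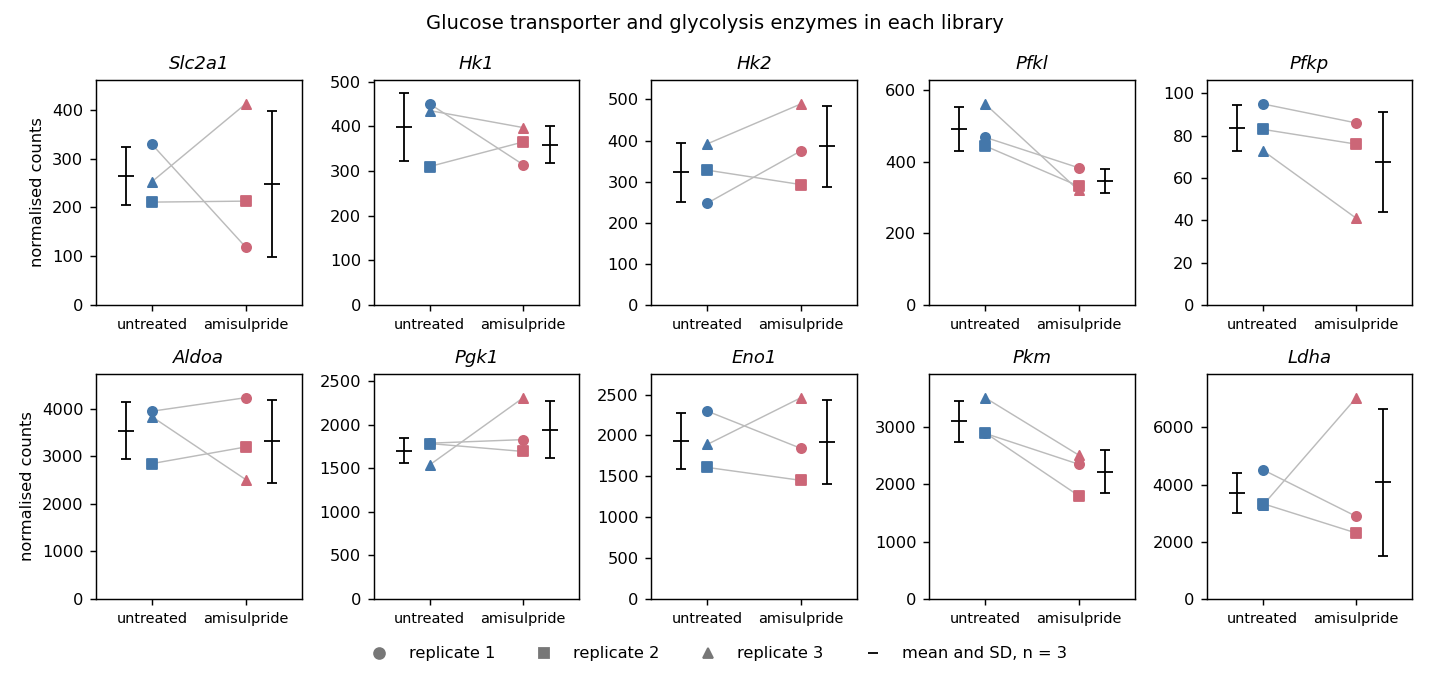
Normalised counts (vertical axis, from 0) of the 10 genes in each library, untreated in blue and amisulpride in red, with the marker giving the replicate number, grey lines joining equal numbers, and bars giving mean and SD of 3 libraries. The treated points lie wholly below the untreated points for *Pfkl* and *Pkm*, and the amisulpride replicate 3 point of *Ldha* stands at 7036.

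The hexokinases differ in their control, *Hk1* being the broadly expressed form and *Hk2* the inducible one. *Hk1* (chr10:62268855-62379908, minus strand) had 450, 310 and 435 normalised counts in untreated and 314, 365 and 397 in treated cultures. The treated values lay inside the untreated range, and the log2 fold change was -0.14 ± 0.25 (95% interval -0.68 to 0.41; adjusted p = 0.871). *Hk2* (chr6:82725025-82774454, minus strand) had 248, 328 and 392 untreated and 375, 293 and 489 treated normalised counts. Amisulpride replicate 3 was highest, the groups overlapped, and the log2 fold change of 0.25 ± 0.28 (95% interval -0.36 to 0.86) had an adjusted p of 0.785. The ratio of *Hk2* to *Hk1* within a library does not depend on how libraries were scaled. Its mean log2 value was -0.31 ± 0.49 untreated and 0.08 ± 0.34 treated, a difference of 0.39 (two-sided exact permutation p = 0.3, 0.6 after adjustment over 3 ratios). With 3 cultures against 3 this test cannot give a p below 0.1. On the per-length scale deposited by the authors the mean log2 ratio was 0.40 untreated and 0.79 treated. Reads from 3′ ends do not scale with gene length, so the sign of these ratios depends on the scale and no order of *Hk1* and *Hk2* is read from them.

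*Pfkl* and *Pfkp* encode the liver-type and platelet-type subunits of phosphofructokinase, the enzyme that commits sugar to glycolysis. *Pfkl* (chr10:77986947-78010083, minus strand) had 468, 444 and 561 normalised counts in untreated cultures and 383, 332 and 320 in treated ones. All 3 treated cultures lay below the lowest untreated culture, and same-numbered cultures differed by -0.29, -0.42 and -0.81 on the log2 scale. The means were 491 ± 61.8 and 345 ± 33.5 (SD, n = 3 each). The log2 fold change was -0.50 ± 0.23 (95% interval -1.01 to 0.0043), which did not pass over all genes (limma, adjusted p = 0.463; 0.373 with the replicate number as a block). *Pfkp* (chr13:6579768-6648777, minus strand) was lower in level, with 95, 83 and 73 untreated and 86, 76 and 41 treated normalised counts. The groups overlapped, and amisulpride replicate 3 was the lowest culture. Its log2 fold change was -0.36 ± 0.33 (95% interval -1.09 to 0.36; adjusted p = 0.738), and -0.04 without amisulpride replicate 3. *Pfkm*, the muscle-type subunit, had 96, 108 and 94 against 107, 88 and 88 normalised counts (log2 fold change -0.08, adjusted p = 0.934). The log2 ratio of *Pfkp* to *Pfkl* was -2.54 ± 0.34 untreated and -2.40 ± 0.47 treated, a difference of 0.14 (two-sided exact permutation p = 0.6, also 0.6 after adjustment). Per length the mean log2 ratio was -4.27 and -4.13, below 0 as in counts. Fructose 2,6-bisphosphate, the strongest activator of phosphofructokinase, is made and removed by the PFKFB enzymes. Of that list 4 genes were tested, all 4 had fold changes below 0 and 0 passed, beside 0.285% of all genes tested. *Pfkfb3*, its inducible maker, had 471, 609 and 668 against 765, 485 and 501 normalised counts (log2 fold change -0.01, adjusted p = 0.989). *Pfkfb4*, a related form, had the lowest p of that list and was low in level, with 12, 15 and 18 against 10, 8 and 7 (log2 fold change -0.77, adjusted p = 0.611).

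*Aldoa* closes the upper, ATP-consuming steps, and *Pgk1* and *Eno1* act in the lower steps that yield ATP. *Aldoa* (chr7:126795234-126809108, minus strand), which splits fructose 1,6-bisphosphate, had 3948, 2847 and 3831 untreated and 4232, 3196 and 2512 treated normalised counts. The highest and the lowest culture were both treated, and the log2 fold change was -0.11 ± 0.28 (95% interval -0.73 to 0.51; adjusted p = 0.912). *Pgk1* (chrX:106187100-106203699, plus strand), which makes ATP from 1,3-bisphosphoglycerate, had 1788, 1784 and 1539 untreated and 1829, 1693 and 2310 treated normalised counts. Amisulpride replicate 3 was highest and the other treated cultures lay close to the untreated ones (log2 fold change 0.18 ± 0.24, 95% interval -0.35 to 0.71, adjusted p = 0.827). *Eno1* (chr4:150236721-150248879, plus strand), which makes phosphoenolpyruvate, had 2297, 1609 and 1891 untreated and 1842, 1451 and 2462 treated normalised counts. The treated group again held both extremes, and the log2 fold change was -0.03 ± 0.28 (95% interval -0.63 to 0.57; adjusted p = 0.980).

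Copies elsewhere in the genome can share reads with some of these genes. For *Eno1*, 68.1% of the 50-base words in the last 500 bases of its transcripts also occur in *Eno1b* and 48.2% in the pseudogene *Gm4735*, which had mean normalised counts of 393 and 1419. *Pgk1* shared 7.32% of its words with *Pgk1-rs7*, which had a mean of 1900. *Pkm*, *Aldoa* and *Ldha* shared at most 13.7%, 5.7% and 5.06% with a single copy, and no shared words were found for *Slc2a1*, *Hk1*, *Hk2*, *Pfkl* and *Pfkp*. The split of reads between *Eno1*, *Pgk1* and their copies is therefore uncertain. Strand-specific counting is not described in the sources used here, so overlapping genes on the other strand matter too: *Pfkp* overlaps *Pitrm1*, which had a mean of 31.5 normalised counts, and *Hk1* overlaps the antisense gene *Hk1os*, with a mean of 8.3. With the copies added to the gene the log2 fold change was 0.01 for *Eno1* and 0.15 for *Pgk1*.

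*Pkm* (chr9:59656368-59679375, plus strand) encodes muscle pyruvate kinase, whose M1 and M2 splice forms share their 3′ end and cannot be told apart in these reads. It had 2889, 2901 and 3511 normalised counts in untreated cultures and 2351, 1802 and 2511 in treated ones. Every treated culture lay below every untreated culture, and same-numbered cultures differed by -0.30, -0.69 and -0.48 on the log2 scale. The means were 3100 ± 356 and 2221 ± 372 (SD, n = 3 each). The log2 fold change of -0.49 ± 0.25 (95% interval -1.04 to 0.06) did not pass over all genes (limma, adjusted p = 0.518; 0.416 with the block). *Ldha* (chr7:46841475-46855627, plus strand) encodes the lactate dehydrogenase subunit that favours lactate production. Its normalised counts were 4522, 3335 and 3272 untreated and 2886, 2305 and 7036 treated. Amisulpride replicates 1 and 2 lay below all untreated cultures, and amisulpride replicate 3 lay above all of them. The means were 3710 ± 704 and 4076 ± 2580, and the log2 fold change was -0.03 ± 0.39 (95% interval -0.87 to 0.82; adjusted p = 0.986). In fold terms that interval reaches from 0.546 to 1.77. Without amisulpride replicate 3 the log2 fold change was -0.51 (limma, adjusted p = 0.469). *Ldhb*, the subunit that favours pyruvate, had 47, 60 and 48 against 89, 133 and 50 normalised counts (log2 fold change 0.70, adjusted p = 0.523). The log2 ratio of *Ldha* to *Ldhb* was 6.13 ± 0.40 untreated and 5.41 ± 1.54 treated, a difference of -0.73 (two-sided exact permutation p = 0.5, 0.6 after adjustment). Per length the mean log2 ratio was 4.26 and 3.53.

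**Figure D2:**
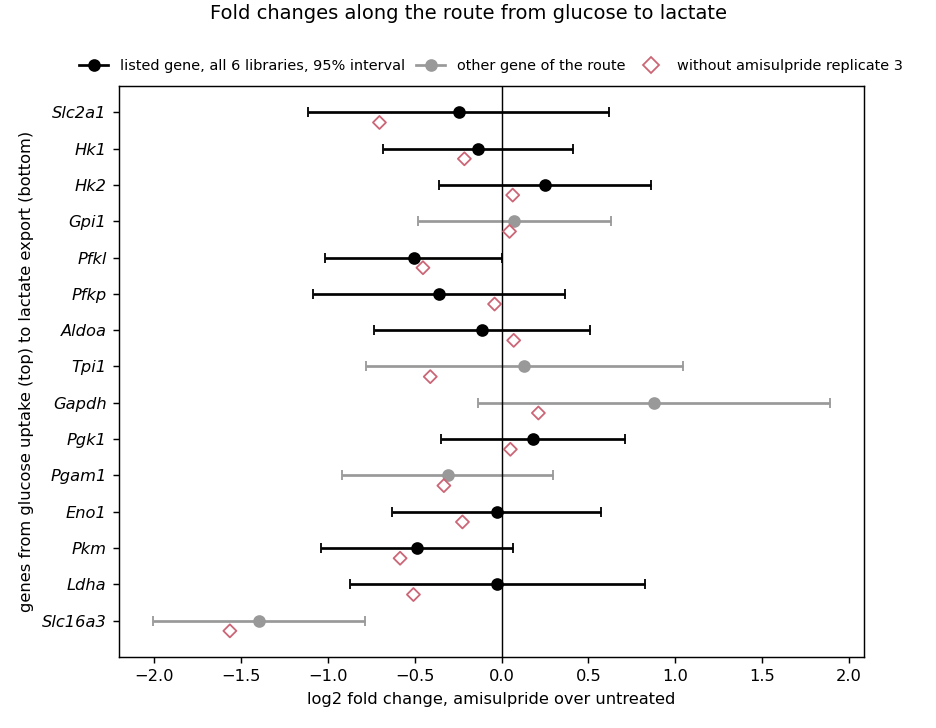
Log2 fold changes (horizontal axis, amisulpride over untreated) of 15 genes ordered from glucose uptake to lactate export, with 95% intervals from limma; open diamonds leave out amisulpride replicate 3. The intervals of the 10 listed genes (black) all include 0, and the interval of *Slc16a3* runs from -2.01 to -0.79.

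The genes did not move together across libraries. Amisulpride replicate 3 was the highest of the 6 libraries for *Slc2a1*, *Hk2*, *Pgk1*, *Eno1* and *Ldha* and the lowest for *Pfkl*, *Pfkp* and *Aldoa*. Within that library, deviations from each gene's mean ran from -0.82 for *Pfkp* to 0.95 for *Ldha* on the log2 scale. Amisulpride replicate 2 was lowest for *Eno1*, *Pkm* and *Ldha* and highest for none. The share of all normalised counts taken by the 10 genes was 0.428%, 0.361% and 0.401% in untreated replicates 1, 2 and 3 and 0.366%, 0.298% and 0.411% in the amisulpride replicates. The shares of the groups overlapped. Amisulpride replicate 3 was also the library with the largest worth of a single read, the fewest genes above 0 and the highest fibroblast marker sum, and the part of these in its values was not tested. Without it, the median log2 fold change of the 10 genes was -0.22 and 0 of 10 passed either threshold.

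**Figure D3:**
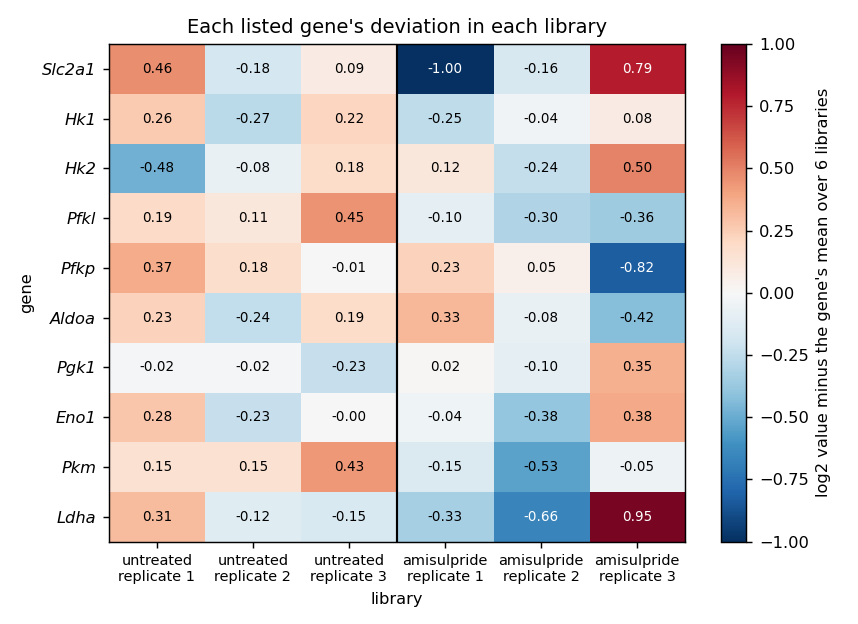
Deviation of each gene (rows) in each library (columns) from its mean over 6 libraries, on the log2 scale, red above and blue below. Untreated replicates are left of the line, and the amisulpride replicate 3 column holds both strong positive values (*Ldha*, 0.95) and strong negative ones (*Pfkp*, -0.82).

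The main line from glucose to lactate has 4 more enzymes. *Gpi1*, the isomerase after hexokinase, had 898, 611 and 847 untreated and 934, 684 and 848 treated normalised counts (log2 fold change 0.07, adjusted p = 0.937). *Tpi1*, which interconverts the triose phosphates, had 3170, 2343 and 2066 against 2127, 1642 and 5776 (log2 fold change 0.13, adjusted p = 0.931). Like *Ldha*, it was lowest in amisulpride replicate 2 and highest in amisulpride replicate 3, and without the latter the log2 fold change was -0.41. *Gapdh*, which oxidises glyceraldehyde 3-phosphate, had 1019, 1114 and 1342 untreated and 1253, 1417 and 5327 treated normalised counts. Amisulpride replicate 1 lay inside the untreated range, replicate 2 just above it, and replicate 3 stood apart. Its log2 fold change was 0.88 ± 0.46 (95% interval -0.13 to 1.89; adjusted p = 0.524) and 0.21 without amisulpride replicate 3. Words of the *Gapdh* 3′ end occur in 189 other genes, so its counts are uncertain. *Pgam1*, which moves the phosphate of phosphoglycerate, had 3178, 2848 and 2913 against 3195, 1748 and 2475 (log2 fold change -0.31, adjusted p = 0.733).

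Among the other glycolysis enzymes 13 of 21 were tested, 6 had fold changes above 0 and 7 below, 0 passed over all genes, and the median log2 fold change was -0.01. Past the thresholds of the study were 2 of 13, beside 5.7% of all genes tested. They were *Pgam2* and *Eno3*, the muscle forms of phosphoglycerate mutase and enolase, both lower and both low in level. *Pgam2* had 30, 28 and 13 untreated and 4, 8 and 0 treated normalised counts, with a log2 fold change of -2.71 ± 0.81 and an adjusted p of 0.221 (0.0369 with the block). *Eno3* had 19, 13 and 20 against 12, 4 and 2 (log2 fold change -1.64 ± 0.64, adjusted p = 0.365). *Pgam2* reached the filter level of 10 only in the 3 untreated cultures, so it was tested only through the group where it was high. Its p-values are given as a description and not as support for a change. Fold changes at such levels rest on few reads. That of *Pgam2* was -1.79 on the log2 scale without amisulpride replicate 3, where its value was 0, and -1.72 with a pseudocount of 5. That of *Eno3* was -1.16 without amisulpride replicate 3, -2.22 without amisulpride replicate 1 and -1.11 with a pseudocount of 5.

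The gene of the route with the lowest p was *Slc16a3* (chr11:120948480-120960868, plus strand), which encodes MCT4, the exporter of lactate from glycolytic cells. Its normalised counts were 1165, 708 and 919 in untreated cultures and 353, 268 and 435 in treated ones. All treated cultures lay below all untreated cultures, and no shared words were found for its transcript ends. The means were 931 ± 229 and 352 ± 83.5 (SD, n = 3 each), and the log2 fold change was -1.40 ± 0.28 (95% interval -2.01 to -0.79). It passed the thresholds of the study but not over all genes (limma, adjusted p = 0.0652). The limma adjusted p was 0.0411 with quantile normalisation, 0.0434 with total scaling and 0.0118 with library weights. It was 0.0573 with a pseudocount of 5, 0.0596 with no filter and 0.0603 with median centring. With the replicate number as a block the adjusted p was 0.00661, and without amisulpride replicate 3 it was 0.0159. Dropping any other library moved it away from the threshold: it was 0.274, 0.155 and 0.304 without untreated replicate 1, 2 or 3, and 0.136 and 0.226 without amisulpride replicate 1 or 2. *Slc16a1* (MCT1), the transporter for both uptake and export, had 68, 73 and 49 against 57, 116 and 165 normalised counts (log2 fold change 0.71 ± 0.38, adjusted p = 0.538). Of 5 lactate transport genes tested, 0 passed over all genes in the main fit. The thresholds of the study were passed by 1, *Slc16a3*, beside 5.7% of all genes tested. Log2 fold changes of the 5 ran from -1.61 to 0.71. The lowest belonged to a gene other than *Slc16a3*, whose unadjusted limma p was not under 0.05.

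**Figure D4:**
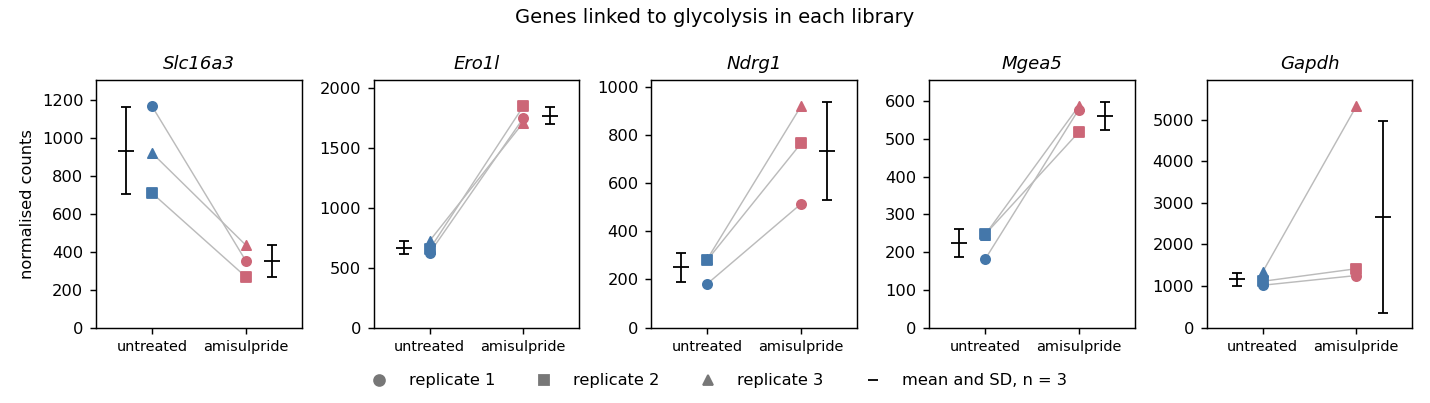
Normalised counts (vertical axis, from 0) of 5 genes outside the list of 10 in each library, drawn as in the plot of the 10 genes. *Slc16a3* lies lower and *Ero1l*, *Ndrg1* and *Mgea5* higher in every treated library, while *Gapdh* stands at 5327 in amisulpride replicate 3.

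Side routes that draw on the same sugars held no call over all genes in the main fit, beside 0.285% of all genes tested. In the hexosamine pathway, which makes the donor for protein O-GlcNAc, 7 genes were tested and 0 passed over all genes. *Mgea5*, the O-GlcNAcase that removes the sugar again, had 181, 247 and 246 untreated and 578, 518 and 587 treated normalised counts, without overlap. Its log2 fold change was 1.33 ± 0.24 (95% interval 0.80 to 1.85; adjusted p = 0.051, and 0.00965 with the block), past the thresholds of the study. Of the 7 genes 1, *Mgea5*, passed those thresholds, beside 5.7% of all genes tested. Without amisulpride replicate 3 the adjusted p of *Mgea5* was 0.0294, and without any other library it was 0.119 to 0.214. The limma adjusted p was 0.0429 with a pseudocount of 5, 0.0435 with no filter, 0.0411 with quantile normalisation and 0.0144 with library weights. It was 0.0527 with median centring and 0.0589 with total scaling. Of 10 pentose phosphate genes tested 5 had fold changes above 0 and 5 below, and 0 passed. The lowest p there belonged to *Pgd*, which makes NADPH, with 1449, 983 and 943 against 752, 754 and 580 normalised counts (log2 fold change -0.68 ± 0.26, adjusted p = 0.353). All 5 serine synthesis genes had fold changes below 0, with a median log2 value of -0.57, and 0 passed. That median was -0.85 with amisulpride replicate 3 left out and -0.30 with untreated replicate 3 left out. *Psat1*, the aminotransferase of that route, had 335, 390 and 857 against 304, 224 and 372 (log2 fold change -0.71, adjusted p = 0.504), and without untreated replicate 3 its log2 fold change was -0.30. In glycogen metabolism 9 genes were tested and 0 passed, and *Ugp2*, the maker of UDP-glucose, had the lowest p (log2 fold change 0.55, adjusted p = 0.554). Of 2 gluconeogenesis genes tested 0 passed, and *G6pc3*, a glucose 6-phosphatase, had a log2 fold change of 0.30.

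Past pyruvate, 14 genes of pyruvate entry to mitochondria were tested, 7 above and 7 below 0. Of these 0 passed, beside 0.285% of all genes tested. *Pdhx*, a structural part of pyruvate dehydrogenase, had 122, 117 and 78 against 58, 59 and 75 normalised counts (log2 fold change -0.70, adjusted p = 0.411). Of 15 tricarboxylic acid cycle genes 0 passed, and their median log2 fold change was 0.03. *Sdha*, the flavoprotein of succinate dehydrogenase, had 669, 880 and 816 against 570, 491 and 592, without overlap (log2 fold change -0.51 ± 0.23, adjusted p = 0.460). Of 6 genes of the glycerol 3-phosphate and malate shuttles 0 passed, and *Mdh2*, the mitochondrial malate dehydrogenase, had a log2 fold change of -0.50 (adjusted p = 0.557).

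Regulators of these genes were read next. *Hif1a*, the oxygen-regulated subunit of HIF-1, had 956, 1349 and 1485 untreated and 1189, 841 and 839 treated normalised counts (log2 fold change -0.40 ± 0.27, adjusted p = 0.635). The groups overlapped, and RNA does not report the stability of the protein, by which HIF-1 is mainly controlled. Of 8 hypoxia regulators tested 6 had fold changes below 0 and 0 passed, beside 0.285% of all genes tested. *Egln3*, a prolyl hydroxylase that marks HIF for breakdown, had 96, 96 and 86 against 73, 62 and 39 (log2 fold change -0.71, adjusted p = 0.427). *Myc* had 52, 64 and 38 against 49, 54 and 30 (log2 fold change -0.22, adjusted p = 0.852), and of 9 other transcription factors of glycolysis genes tested, *Myc* included, 0 passed. *Usf2*, an E-box binding factor, had the lowest p among them, with 4721, 4094 and 4758 against 3793, 2764 and 2552, without overlap (log2 fold change -0.59, adjusted p = 0.442).

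In the main fit, which leaves out the pairing of equal numbers, other hypoxia-inducible genes held the single call of the related lists. With the replicate number as a block 7 genes of the related lists were called, 3 of them in this list. Of 17 tested, 12 had fold changes above 0 and 5 below. The median log2 fold change was 0.30, and 0.15 without amisulpride replicate 3. *Slc16a3*, *Egln3* and *Pfkfb4*, all with fold changes below 0, were counted in other lists. Over all genes 1 of 17 passed, beside 0.285% of all genes tested. The list as a whole was given no test. *Ero1l*, an oxidase that forms disulphide bonds in the endoplasmic reticulum, rose from 625, 656 and 726 to 1751, 1850 and 1714 normalised counts. Its log2 fold change was 1.41 ± 0.22 (95% interval 0.92 to 1.90; adjusted p = 0.0277), and the groups were far apart relative to their SDs of 51.7 and 70.3. The call was lost when untreated replicate 1, 2 or 3 or amisulpride replicate 1 or 2 was left out, with adjusted p between 0.0773 and 0.169, and the log2 fold change then stayed between 1.36 and 1.47. *Ndrg1*, a stress-responsive gene, had 182, 281 and 285 against 513, 764 and 918, without overlap (log2 fold change 1.54 ± 0.29; adjusted p = 0.0611, and 0.0030 with the block). Its adjusted p was 0.0477 without amisulpride replicate 3 and 0.0582 to 0.24 without any other library. The limma adjusted p was 0.0487 with a pseudocount of 5, 0.0478 with no filter, 0.0433 with quantile normalisation and 0.0208 with library weights. It was 0.0603 with median centring and 0.0571 with total scaling. *Plod2*, a lysyl hydroxylase of collagen, had 409, 900 and 907 against 1084, 1301 and 3965 (log2 fold change 1.35 ± 0.47; adjusted p = 0.289, and 0.0221 with the block), with a log2 fold change of 0.77 without amisulpride replicate 3 and 0.97 without untreated replicate 1. *Ndrg1* and *Plod2* passed the thresholds of the study along with *Ero1l*, 3 of 17 beside 5.7% of all genes tested. These 3 genes act in protein folding, stress and collagen processing and not in glycolysis.

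Among the markers of other cells, 5 of 12 myeloid markers had fold changes above 0 and 7 below, from -1.74 to 0.95 on the log2 scale. For 1 of 12 all treated values lay above all untreated ones, beside 984 of the 12614 genes tested. For 1 of 12 all lay below, beside 1092 of the 12614. *Cd14* and *Csf1r* passed the thresholds of the study, 2 of 12 beside 5.7% of all genes tested. Over all genes 0 of 12 passed, beside 0.285% of all genes tested. *Cd14* had 121, 69 and 76 against 47, 25 and 13 normalised counts (log2 fold change -1.74 ± 0.44; adjusted p = 0.144, and 0.012 with the block). *Csf1r* had 114, 93 and 76 against 41, 23 and 100 (log2 fold change -1.01 ± 0.46, adjusted p = 0.456). It fell short of a log2 change of 1 with a pseudocount of 5 (-0.93) and without untreated replicate 1 (-0.87), amisulpride replicate 1 (-0.93) or amisulpride replicate 2 (-0.53). The summed myeloid levels of the groups overlapped, as given above, and the part of myeloid RNA in the glycolysis values was not tested. *Col1a2* had the lowest p of the fibroblast markers (log2 fold change 0.71, adjusted p = 0.487). *Cd3d*, the lymphocyte marker tested, had 30, 26 and 18 against 16, 33 and 11, and *Tnni2*, of skeletal muscle, had 13, 2 and 0 against 13, 35 and 4.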

How the data were processed

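Cultures of hTNFtg SFs were profiled by 3′ mRNA sequencing on an Ion Proton in 2 groups of 3. The authors mapped reads to mm10 with TopHat2 and, for unmapped reads, Bowtie2, counted them per gene with GenomicRanges, removed genes at 0, and normalised and tested them with DESeq through metaseqr; versions are not given in the sources used here. The deposited values, treated here as a score, are counts divided by 1 factor per library and rounded, so no count model was used; the per-length columns, also a score, divide them by 1 length per gene whose definition is not given in the sources used here, and serve only for ratios. Columns of the authors' p-values, false discovery rates, fold changes and group means were not used, nor were the 6 columns of log2 values.

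Genes at 10 or more in at least 3 of 6 libraries were kept (12614 of 49548, 10 of 10 listed genes). Log2(value + 1) was fitted with limma 3.58.1 (R 4.3.3, trended variance, prior degrees of freedom 7.31), two-sided, with Benjamini-Hochberg adjustment across them all. The added 1 pulls the fold changes of weakly expressed genes toward 0. Ratios were tested by exact permutation in scipy 1.17.1. Deviations of same-numbered cultures from their group means correlated at 0.229, 0.24 and 0.201 over genes, against -0.149 to -0.0777 for other numbers. Deviations within a group sum to 0, so positive values for equal numbers push the others below 0. The numbers of the labels were taken to pair the cultures. The main fit, its intervals and the permutation tests leave this pairing out. A fit with the replicate number as a block was run as an alternative, and its adjusted p is given where it changed a call. Paired exact tests (sign flips) of the 3 ratios gave p = 0.5 each, where 0.25 is the smallest possible. The methods of the study name 3 biological replicates; how cultures relate to single mice is not given in the sources used here. Read depth is approximate, and the low values limit the precision of genes such as *Pfkp*.

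The scripts were tested on simulated data. Those data held no pairing by replicate number and no library set apart as amisulpride replicate 3 was, so they do not cover these features. The listed genes and the related lists were chosen with earlier results of these data known. Genes named in the text were the 10 listed genes, the other main-line enzymes, a set of linked genes (*Ldhb*, *Pfkm*, *Pfkfb3*, *Slc2a3*, *Slc16a1*, *Slc16a3*, *Hif1a*, *Myc*), in each list the genes past a threshold or else the one of lowest p, and the 5 genes whose values were most like the mean of the 10. Shared sequence was counted in GENCODE M21 transcripts (GRCm38), and promoters come from RefSeq (GRCm38.p6). Alternatives were a pseudocount of 5, no filter, quantile normalisation, median centring, total scaling, library weights, the block, an adjusted p under 0.1, leaving out each library, and, added after the data were seen, summing near-identical copies.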

Additional observations from a re-analysis of the deposited data

How the results depend on the processing

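The count of listed genes past a threshold was 0 of 10 under each alternative run. Fold changes near 0 changed sign: *Aldoa* was 0.014 with library weights, *Eno1* 0.013 with copies summed, and *Tpi1* -0.12 with weights. The count of all genes called, 36 as reported, became 66 after quantile normalisation, 57 when no low genes were filtered out, 57 when the pseudocount was 5, 195 with weights, 263 with the replicate block and 133 at an adjusted p under 0.1. Genes of the related lists called, 1 as reported, numbered 3 when no low genes were filtered out, 3 when the pseudocount was 5, 4 with quantile normalisation, 2 with total scaling, 4 with weights, 7 with the block and 4 at an adjusted p under 0.1. The block, or pairing of equal numbers, changed the call of *Slc16a3*, *Mgea5*, *Ndrg1*, *Plod2*, *Pgam2* and *Cd14*, as given beside each, and no other call of a named gene. The median log2 fold change of pyruvate entry was -0.11 with total scaling, and that of the other transcription factors -0.034 with weights.

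Leaving out each library in turn gave log2 fold changes of -0.70 to 0.19 for *Slc2a1*, -0.31 to 0.069 for *Aldoa*, -0.23 to 0.16 for *Eno1*, -0.51 to 0.30 for *Ldha*, -0.10 to 0.20 for *Gpi1*, -0.41 to 0.50 for *Tpi1*, -0.23 to 0.10 for *Pfkfb3* and -0.42 to 0.034 for *Myc*. Of all genes, 0 were called when untreated replicate 2 or 3 was dropped, 1 when untreated replicate 1 was, 17 and 6 when amisulpride replicate 1 or 2 was, and 120 when amisulpride replicate 3 was, and the related genes called ran from 0 to 5. List medians ran from -0.22 to 0.0064 for other glycolysis enzymes, -0.27 to 0.39 for lactate transport, -0.14 to 0.11 for pyruvate entry, -0.12 to 0.12 for pentose phosphate, -0.046 to 0.20 for hexosamine, -0.85 to -0.30 for serine synthesis, -0.10 to 0.10 for the tricarboxylic acid cycle, 0.15 to 0.50 for other hypoxia-inducible genes, 0.034 to 0.32 for other transcription factors and -0.071 to 0.33 for fibroblast markers. The difference in the *Pfkp* to *Pfkl* ratio ran from -0.049 to 0.41. The cause of these moves was not tested.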

Other observations

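The 5 tested genes whose 6 values were most like the mean of the 10 glycolysis genes were *Selenow*, *Agk*, *Dok3*, *Zfp628* and *2310036O22Rik*, with Pearson r of 0.997, 0.991, 0.986, 0.977 and 0.975 and Spearman rho of 1.0, 0.943, 1.0, 0.943 and 0.943 over 6 libraries. These were picked from all tested genes for likeness, the points share library and depth, and no p is given. The 10 genes did not move together, and their mean ran only from -0.24 to 0.18 on the log2 scale. Likeness to that mean is therefore not likeness to the single glycolysis genes. *Agk*, *Dok3* and *Zfp628* were low in level, with 9 to 23, 7 to 28 and 9 to 19 normalised counts. Their correlations rest on few reads. *Selenow*, which encodes a small selenoprotein, had 213, 139 and 182 untreated and 120, 96 and 197 treated normalised counts (log2 fold change -0.41, limma adjusted p = 0.684). It was lowest in amisulpride replicate 2 and highest in untreated replicate 1, and its groups overlapped.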
